A study of Saccharomyces cerevisiae with 8 samples.

Results

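The 38 genes described here encode the machinery that moves proteins into the endoplasmic reticulum (ER) of Saccharomyces cerevisiae and attaches sugars to them. They were chosen by name and not by a cut on their measured values, but earlier results of these data were known at the time. Each was matched to the array through its systematic name, giving 38 of the 6576 names on the array. They fall into 7 role groups: 8 translocon genes, 2 signal recognition genes, 4 signal peptidase genes, 9 oligosaccharyltransferase genes, 9 ALG genes of lipid-linked oligosaccharide assembly, 2 glucosidase genes and 4 PMT genes of O-mannosylation. RNA of 8 samples was hybridised to the 8 Agilent arrays of 1 slide, with 1 dye and 1 sample per array, from early log phase cells in synthetic medium. All 3 strains lacked IRE1, the ER sensor kinase of the unfolded protein response (UPR). Δire1 is labelled with that deletion alone (n = 3), SSZ1OEΔire1 also overexpressed SSZ1, which encodes a ribosome-bound Hsp70-like protein (n = 2), and SSZ1OEΔire1Δscj1 carried both changes and lacked SCJ1, whose product is a lumenal J-domain partner of the ER Hsp70 (n = 3). The labels name no promoter or plasmid for the overexpression and no IRE1-containing strain was analysed here. The study's design text calls the samples independent and each has a source code of its own, but separate cultures per strain are not stated, so p-values cover only the spread seen among these samples, part of which may be technical.

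A protein bound for the secretory pathway is recognised by its signal sequence, either while it is still being made, by the signal recognition particle, or afterwards, by the Sec62 and Sec63 branch, and is threaded through the Sec61 channel. In the lumen the signal peptidase removes the signal sequence, and the oligosaccharyltransferase transfers a preassembled glycan from the lipid dolichol to asparagines. That glycan is built step by step by the ALG enzymes and trimmed by glucosidases, while the PMT enzymes place mannose on serines and threonines. Many of these genes are known in yeast as targets of the UPR, which needs Ire1, and Ire1 was missing from every strain measured here.

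Levels are log2 signals from which the 75th percentile of the same array was subtracted, so 0 is that percentile and 1 unit is a 2-fold step. Levels of different genes come from different probes and are not compared with each other. Differences between strains are log2 differences with a standard error (SE), and a gene is said to have risen or fallen where limma's moderated test over all 8 arrays gave a two-sided adjusted p under 0.05, with Benjamini-Hochberg adjustment over all 6244 tested genes. All 38 genes passed the filter on dim probes and were well above background on all 8 arrays, none saturated. Across the arrays 90.5% to 95.9% of spots were well above background. The 75th percentile itself lay at 9041 to 10016 intensity units on the SSZ1OEΔire1Δscj1 arrays and at 5037 to 7152 on the others, so the effects of brightness and of that genotype cannot be told apart. The labels held for the targeted genes: SSZ1 was higher than in Δire1 by 2.87 in SSZ1OEΔire1 (adjusted p = 0.000674) and by 2.40 in SSZ1OEΔire1Δscj1 (adjusted p = 0.000182), SCJ1 was not well above background on the SSZ1OEΔire1Δscj1 arrays, and IRE1 was not on any array.

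In these genes, 1 array stood furthest from the others of its strain. Δire1 replicate 2 lay outside the span of replicates 1 and 3 for 37 of the 38 genes, above their mean for 12 and below it for 26, and it was off by more than 0.3 for 18 of 38 (47.4%, against 31.3% of all tested genes). Replicates 1 and 3, which sat in different rows of the slide, differed by a median of 0.039 over the 38 genes, whereas the medians against replicate 2 were 0.28 and 0.31. The direction followed the gene. Replicate 2 was higher for SEC72 by 0.67, ALG5 by 0.53, OST2 by 0.53, SBH2 by 0.49, SPC1 by 0.43 and OST4 by 0.43, and lower for PMT1 (−0.57), CWH41 (−0.57), ALG7 (−0.50), PMT2 (−0.50) and SEC61 (−0.42). All 4 PMT genes and both glucosidase genes were lower there. These deviations are large beside the spot-to-spot spread within an array, whose median SD for these genes was 0.046 to 0.059 over 9 to 10 spots a probe. Replicates 1 and 3 were nevertheless not the same measurement, as 17 of 38 genes differed between them by more than 2 SE of their spots. In SSZ1OEΔire1Δscj1, replicate 2 was lower than the mean of replicates 1 and 3 for 37 of 38 genes, by a median of 0.17. It too lay outside their span for 37 of 38, and was off by more than 0.3 for 3 of 38 (7.89%, against 19.2% of all tested genes). Without it, 1 of 38 genes was called in SSZ1OEΔire1Δscj1 against Δire1, beside 30.6% of all tested genes. The median of the 38 differences was then 0.036. The SD over the 3 Δire1 arrays had a median of 0.17 for these genes and of 0.13 for all tested genes. Over the 3 SSZ1OEΔire1Δscj1 arrays these medians were 0.099 and 0.103, and over the 2 SSZ1OEΔire1 arrays 0.034 and 0.068. The results below are therefore also given without Δire1 replicate 2. There, rose and fell mean an adjusted p under 0.05 in the fit without that array. It was singled out because it deviated in these same genes, and replicates 1 and 3, which remain, were closely similar. The adjusted p-values without it are thus likely too small and show only how far the results depend on that array.

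**Figure D1:**
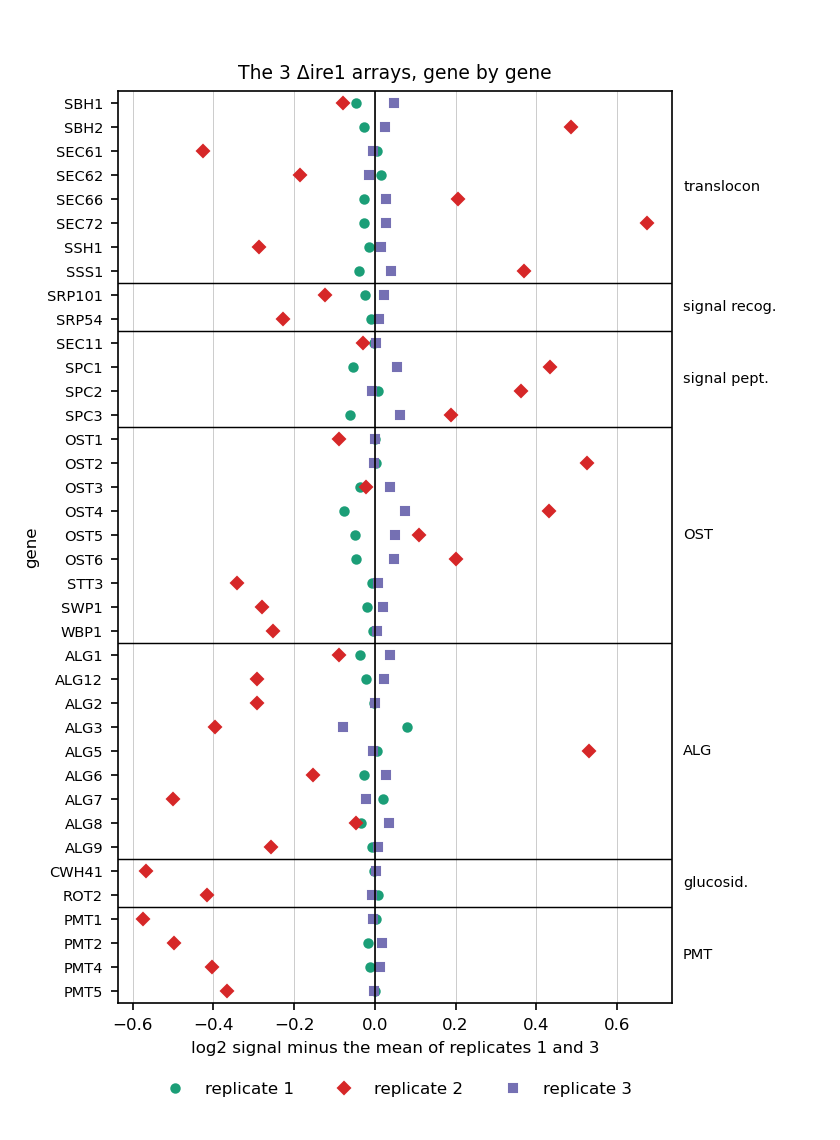
Log2 signal of each of the 38 genes on the 3 Δire1 arrays, minus the mean of replicates 1 and 3 (horizontal axis, log2 units), by gene and role group. Replicates 1 and 3 (circles and squares) lie close together, and replicate 2 (diamonds) lies outside them for 37 of 38 genes, from −0.57 for PMT1 to 0.67 for SEC72.

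With SSZ1 overexpressed in cells without IRE1, none of the 38 genes passed the test and all differences were small. In SSZ1OEΔire1 against Δire1, 0 of 38 rose and 0 fell by limma, beside 7.48% of all tested genes that rose and 3.88% that fell; at an unadjusted p under 0.05, ALG1 was higher and ALG6 lower, 2 of 38 beside 1786 of the 6244 tested genes in either direction. The median difference was 0.0072 and the range ran from −0.27 to 0.31. For all 38 genes the 95% interval of the difference, taken gene by gene, excluded a 2-fold change in either direction, and for 33 of 38 it excluded a 1.5-fold change. No overlap between the arrays of these strains was seen for 6 genes that were higher (against 26.9% of all tested genes) and 5 that were lower (against 19.5%). Without Δire1 replicate 2 the count became 8 of 38: SBH2, SEC72, SPC2 and OST2 rose, and SWP1, ALG6, ALG9 and PMT4 fell, beside 14.6% and 9.47% of all tested genes. Each of the other 7 arrays left out in turn gave 0 of 38.

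When SCJ1 was also missing, the comparison with Δire1 called 5 of 38 genes. ALG1 rose, beside 21.3% of all tested genes, and SEC61, SSH1, SRP54 and PMT4 fell, beside 16.9%. The 38 differences had a median of −0.023 and ran from −0.46 to 0.47, and every 95% interval excluded a 2-fold change (37 of 38 without Δire1 replicate 2). Without overlap between the arrays, 1 gene was higher (27.3% of all tested genes) and 8 were lower (23.3%). The count rested on single arrays: it was 21 without Δire1 replicate 2, with 7 that rose and 14 that fell beside 27.2% and 23.5% of all tested genes, and 1 or 2 with any of the other 7 arrays left out. The scaling also mattered, since scaling to the array median gave 1 that rose and 9 that fell, quantile normalization 1 and 1, and scaling to spike-in RNA 4 and 0. The gene that rose with quantile normalization was not ALG1, whose call was lost there. Over all tested genes the calls were 1333 up and 1057 down as reported, 989 and 1573 with median scaling, 943 and 1381 with quantile normalization, and 2021 and 43 when scaled to spike-ins. The latter put the all-gene median at 0.44 and turned SEC61, SSH1 and SRP54 to 0.019, 0.10 and 0.15; relative to the all-gene median the 38 genes then had a median of −0.041. This comparison and the previous one share the Δire1 arrays, so their values are not independent.

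**Figure D2:**
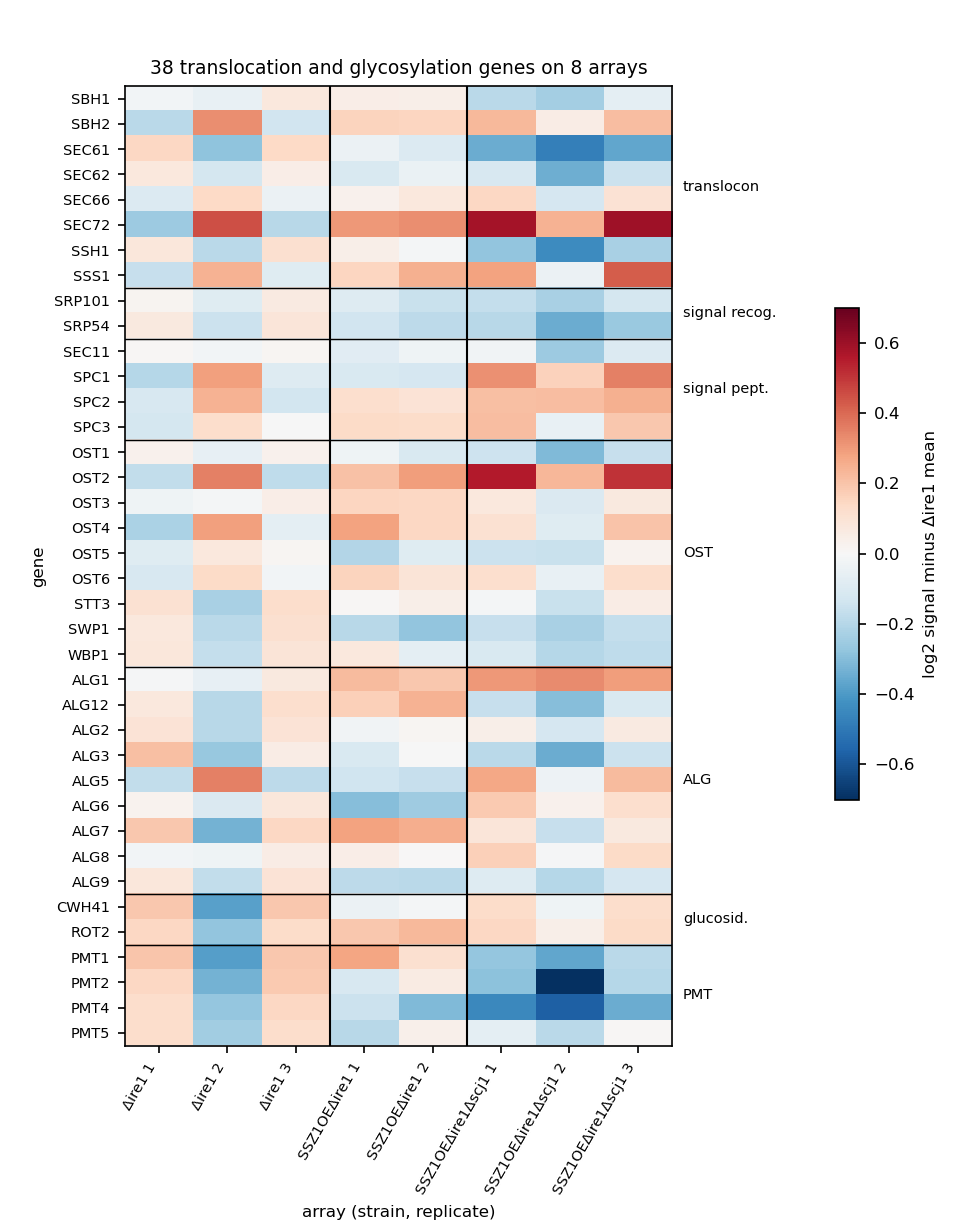
Level of each of the 38 genes (rows, by role group) on each of the 8 arrays (columns) as log2 signal minus the mean of the 3 Δire1 arrays; red is higher and blue lower. The columns of Δire1 replicate 2 and SSZ1OEΔire1Δscj1 replicate 2 stand out from the other replicates of their strain.

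Between the SSZ1-overexpressing strains, which differ by SCJ1, 1 of 38 genes rose, ALG6, and 0 fell by limma, beside 6.28% and 5.57% of all tested genes. At an unadjusted p under 0.05, 2 of the 38 were higher and 5 lower, beside 1985 of the 6244 tested genes in either direction. The median was −0.053, the range −0.47 to 0.39, and again all 38 intervals excluded a 2-fold change, 28 of them a 1.5-fold change. Here 5 genes were higher without overlap (29.5% of all tested genes) and 15 were lower (29.5%). Without Δire1 replicate 2, which enters this comparison only through the shared estimate of spread, 6 were called: SPC1 and ALG6 rose and SEC61, SSH1, ALG12 and PMT1 fell, beside 12.3% and 12.2%. With any other array left out the count was 0. No slide row held arrays of both strains, so row and SCJ1 loss are separated only through Δire1, and with the row as a block 0 of 38 genes were called in each of the 3 comparisons, beside 252, 1065 and 2 of the 6244 tested genes. That fit called almost no gene of any kind between the overexpressing strains, so its count of 0 there says nothing particular about the 38.

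**Figure D3:**
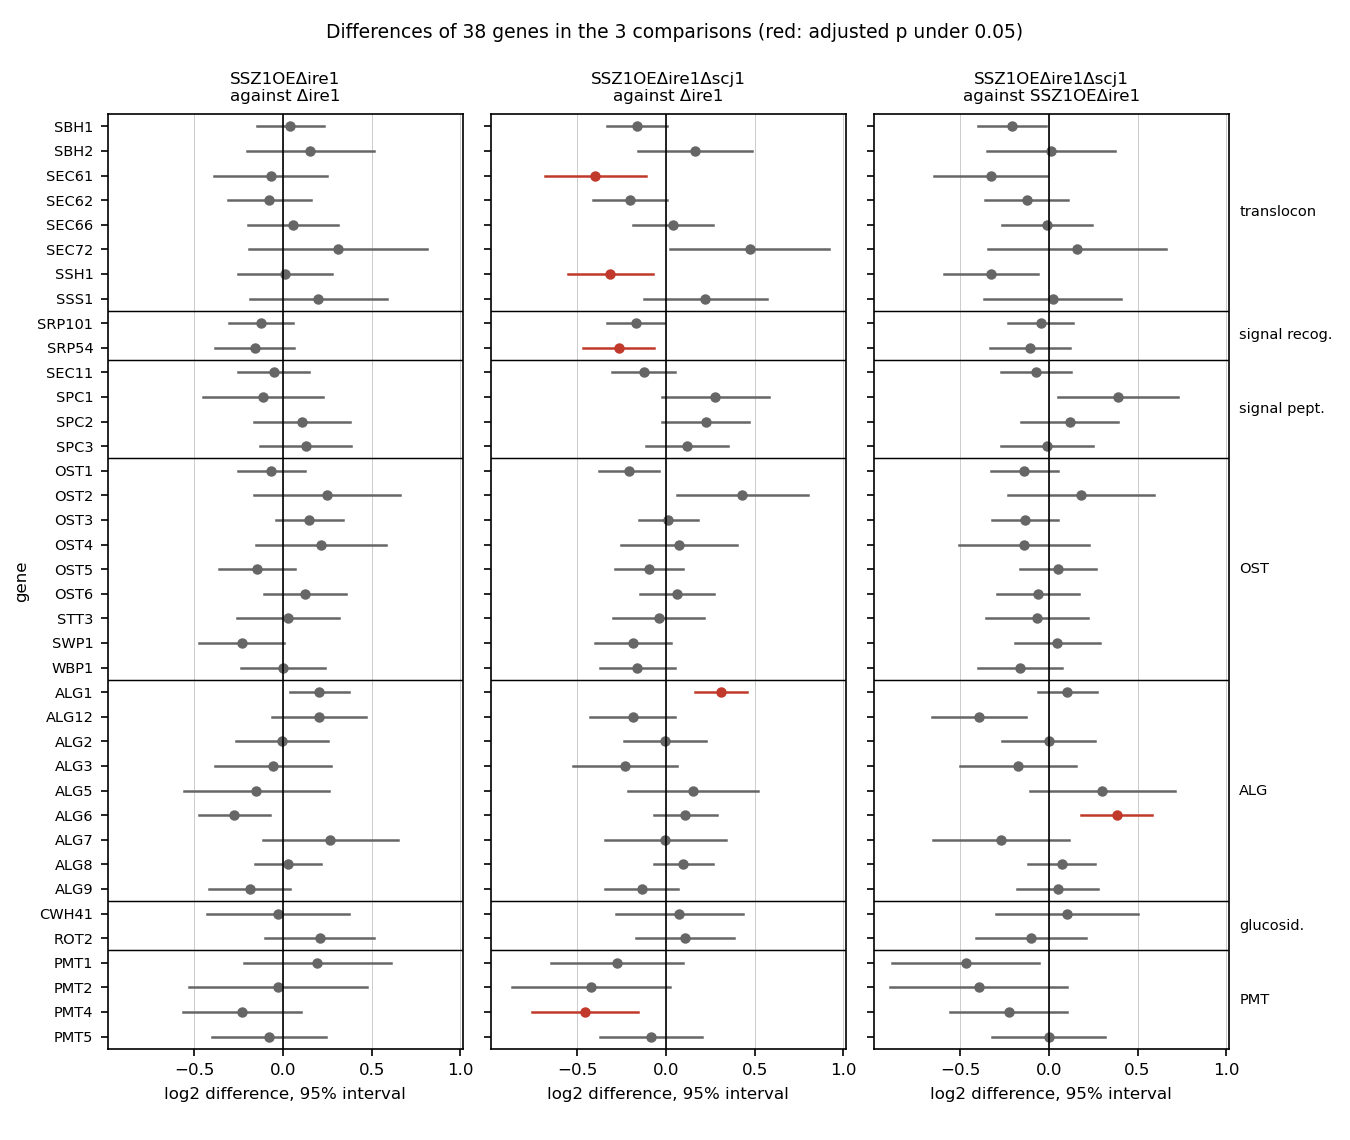
Log2 difference of each of the 38 genes in the 3 comparisons (points) with its gene-by-gene 95% interval (lines); red marks an adjusted p under 0.05 and role groups are separated by lines. No point passes in the comparison of SSZ1OEΔire1 with Δire1, 5 do in SSZ1OEΔire1Δscj1 against Δire1 and ALG6 does between the overexpressing strains, and no interval reaches −1 or 1.

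**Figure D4:**
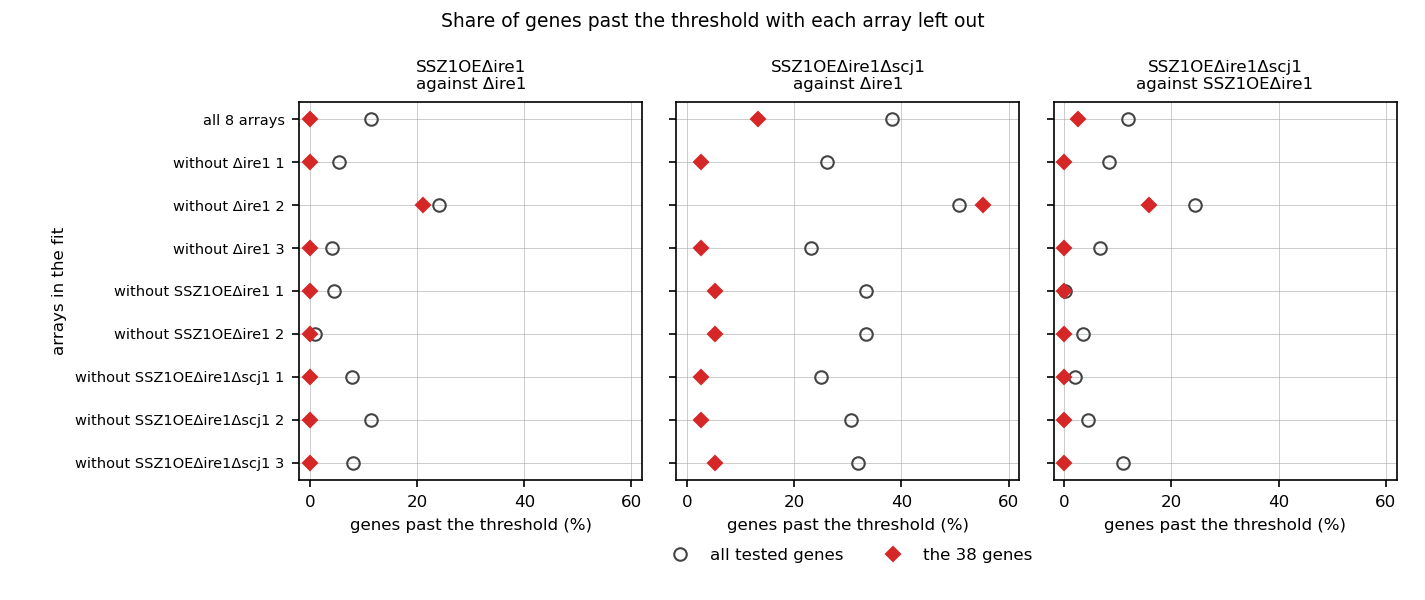
Percentage of the 38 genes (diamonds) and of all tested genes (open circles) with an adjusted p under 0.05, with all 8 arrays and with each array left out in turn, in the 3 comparisons. Leaving out Δire1 replicate 2 gives the highest share in each panel, 21.1%, 55.3% and 15.8% of the 38 genes.

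Among the translocon genes, SEC61 encodes the channel itself. It stood at 2.68, 2.25 and 2.67 in Δire1 replicates 1, 2 and 3, at 2.49 and 2.44 in SSZ1OEΔire1 and at 2.19, 2.05 and 2.17 in SSZ1OEΔire1Δscj1. The SSZ1OEΔire1Δscj1 arrays were all below both other strains, while Δire1 replicate 2 lay nearer to them than to its own replicates. SEC61 fell 1.32-fold against Δire1 (log2 difference −0.40, SE 0.12, adjusted p = 0.0368); the difference from SSZ1OEΔire1 was −0.33 (adjusted p = 0.149), and SSZ1OEΔire1 differed from Δire1 by −0.069 (adjusted p = 0.779).

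SSH1 encodes the pore of a related, alternative translocon. It stood at 1.89, 1.62 and 1.92 in Δire1 replicates 1, 2 and 3, at 1.85 and 1.80 in SSZ1OEΔire1 and at 1.54, 1.37 and 1.58 in SSZ1OEΔire1Δscj1. As for SEC61, there was no overlap between SSZ1OEΔire1Δscj1 and either other strain. SSH1 fell 1.24-fold against Δire1 (log2 difference −0.31, SE 0.10, adjusted p = 0.0449) and differed by −0.33 (adjusted p = 0.0999) from SSZ1OEΔire1. The log2 ratio of SEC61 to SSH1 differed by −0.084 between SSZ1OEΔire1Δscj1 and Δire1 (exact permutation p = 0.3, two-sided). Over 12 such ratio tests, made for 4 gene pairs in 3 comparisons, the smallest p these numbers of arrays allow is 0.1, and none passed after adjustment (lowest adjusted p = 0.4).

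The other translocon genes had differences of both signs. SBH1, a small tail-anchored subunit of the Sec61 complex, stood at 1.63, 1.59 and 1.72 in Δire1 replicates 1, 2 and 3, at 1.69 and 1.69 in SSZ1OEΔire1 and at 1.46, 1.41 and 1.58 in SSZ1OEΔire1Δscj1. It was lower in SSZ1OEΔire1Δscj1 than in both other strains without overlap, but passed in neither comparison (−0.16, adjusted p = 0.111 against Δire1 and −0.21, adjusted p = 0.129 against SSZ1OEΔire1). SBH2, its counterpart in the Ssh1 complex, stood at 2.98, 3.49 and 3.03 in Δire1 replicates 1, 2 and 3, at 3.32 and 3.31 in SSZ1OEΔire1 and at 3.39, 3.22 and 3.38 in SSZ1OEΔire1Δscj1. There Δire1 replicate 2 was the highest of all 8 arrays, and with it left out SBH2 rose in both overexpressing strains against Δire1 (0.32, adjusted p = 0.0342 and 0.33, adjusted p = 0.0114).

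SEC72, a subunit of the Sec63 complex of post-translational import, had the largest positive differences of the 38 genes against Δire1, 0.31 in SSZ1OEΔire1 and 0.47 in SSZ1OEΔire1Δscj1 (adjusted p = 0.38 and 0.089). It stood at 0.84, 1.54 and 0.90 in Δire1 replicates 1, 2 and 3, at 1.40 and 1.42 in SSZ1OEΔire1 and at 1.68, 1.34 and 1.69 in SSZ1OEΔire1Δscj1. Replicates 1 and 3 of Δire1 lay below every other array and replicate 2 among the others. Without that array SEC72 rose in both strains (0.54, adjusted p = 0.0291 and 0.70, adjusted p = 0.00448). SEC72 is described because its values stood out, not by a rule. SEC62, a membrane subunit of the same import branch, differed from Δire1 by −0.077 and −0.20 in SSZ1OEΔire1 and SSZ1OEΔire1Δscj1 in turn. In the same order SEC66, another subunit of that branch, differed by 0.054 and 0.041, and SSS1, the clamp of the channel, by 0.20 and 0.22. None of these passed over all 8 arrays, and without Δire1 replicate 2 SEC62 fell in SSZ1OEΔire1Δscj1 (−0.26, adjusted p = 0.0376).

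Both signal recognition genes had negative differences from Δire1 in both overexpressing strains. SRP54 encodes the GTPase of the signal recognition particle that binds signal sequences. It stood at 1.08, 0.87 and 1.1 in Δire1 replicates 1, 2 and 3, at 0.88 and 0.84 in SSZ1OEΔire1 and at 0.82, 0.67 and 0.76 in SSZ1OEΔire1Δscj1. Every SSZ1OEΔire1Δscj1 array lay below every Δire1 array, and SRP54 fell 1.2-fold (log2 difference −0.27, SE 0.086, adjusted p = 0.0434), with −0.16 in SSZ1OEΔire1 (adjusted p = 0.318). YDR292C, which encodes the alpha subunit of the particle's receptor at the ER membrane and is given by its systematic name, was at −0.12 (adjusted p = 0.335) in SSZ1OEΔire1 and −0.17 (adjusted p = 0.0896) in SSZ1OEΔire1Δscj1, without overlap in either case. Without Δire1 replicate 2 it fell in SSZ1OEΔire1Δscj1 (−0.21, adjusted p = 0.0264).

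None of the 4 signal peptidase genes passed by limma in any comparison (0 of 4, beside 11.4%, 38.3% and 11.9% of all tested genes in the 3 comparisons). At an unadjusted p under 0.05 only SPC1 was higher, between the overexpressing strains, beside 1985 of the 6244 tested genes in either direction. SEC11, the catalytic subunit, stood at 0.95, 0.92 and 0.95 in Δire1 replicates 1, 2 and 3, at 0.86 and 0.91 in SSZ1OEΔire1 and at 0.91, 0.69 and 0.85 in SSZ1OEΔire1Δscj1. It had the smallest SD of the 38 genes over the Δire1 arrays, 0.017, and its differences from Δire1 were −0.053 and −0.12 (adjusted p = 0.727 and 0.23). The other subunit genes had positive differences in SSZ1OEΔire1Δscj1 against Δire1, at 0.28 for SPC1, 0.22 for SPC2 and 0.12 for SPC3. SPC2, shown for its values, stood at −0.10, 0.25 and −0.12 in Δire1 replicates 1, 2 and 3, at 0.13 and 0.11 in SSZ1OEΔire1 and at 0.22, 0.23 and 0.26 in SSZ1OEΔire1Δscj1. Δire1 replicate 2 again sat with the overexpressing strains rather than with replicates 1 and 3. Leaving it out, SPC2 rose in both strains (0.23, adjusted p = 0.0312 and 0.35, adjusted p = 0.00309) and SPC1 rose in SSZ1OEΔire1Δscj1 (0.42, adjusted p = 0.00626).

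Of the 9 oligosaccharyltransferase genes 0 were called in any comparison, beside 11.4%, 38.3% and 11.9% of all tested genes in the 3 comparisons. At an unadjusted p under 0.05, 1 was higher and 1 lower in SSZ1OEΔire1Δscj1 against Δire1, beside 3031 of the 6244 tested genes in either direction. In the other 2 comparisons the unadjusted count was 0. STT3, the catalytic subunit, stood at 1.92, 1.58 and 1.93 in Δire1 replicates 1, 2 and 3, at 1.82 and 1.85 in SSZ1OEΔire1 and at 1.80, 1.65 and 1.87 in SSZ1OEΔire1Δscj1. The 3 strains overlapped, the differences from Δire1 being 0.027 and −0.040, and the 95% interval of the latter ran from −0.30 to 0.22. OST3 and OST6 encode alternative subunits that define 2 forms of the enzyme. OST3 stood at 0.16, 0.17 and 0.23 in Δire1 replicates 1, 2 and 3, at 0.34 and 0.33 in SSZ1OEΔire1 and at 0.26, 0.089 and 0.26 in SSZ1OEΔire1Δscj1. OST6 stood at −1.88, −1.63 and −1.78 in Δire1 replicates 1, 2 and 3, at −1.61 and −1.67 in SSZ1OEΔire1 and at −1.64, −1.81 and −1.64 in SSZ1OEΔire1Δscj1. Neither passed in any comparison, and their log2 ratio differed by 0.026 in SSZ1OEΔire1 and −0.049 in SSZ1OEΔire1Δscj1 against Δire1 (exact permutation p = 1 and 0.4).

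OST2, another subunit, had the largest difference of the complex, 0.43 in SSZ1OEΔire1Δscj1 against Δire1 (adjusted p = 0.0659), and is named for its values. It stood at 0.84, 1.37 and 0.84 in Δire1 replicates 1, 2 and 3, at 1.22 and 1.31 in SSZ1OEΔire1 and at 1.57, 1.25 and 1.52 in SSZ1OEΔire1Δscj1. With Δire1 replicate 2 left out, OST2 rose in both overexpressing strains (0.42, adjusted p = 0.043 and 0.61, adjusted p = 0.00514). SWP1, which with WBP1 and OST2 forms part of the core, then fell in both (−0.33, adjusted p = 0.0166 and −0.28, adjusted p = 0.00924), and OST1 and WBP1 fell in SSZ1OEΔire1Δscj1 (−0.23 and −0.25). OST4 and OST5, both small subunits, passed in no comparison with or without that array.

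The ALG genes gave the calls that rose. ALG1 encodes the enzyme that adds the first mannose on the cytosolic face. It stood at −2.13, −2.18 and −2.06 in Δire1 replicates 1, 2 and 3, at −1.90 and −1.93 in SSZ1OEΔire1 and at −1.82, −1.79 and −1.83 in SSZ1OEΔire1Δscj1. The strains formed 3 levels without overlap, lowest in Δire1 and highest in SSZ1OEΔire1Δscj1. ALG1 rose 1.24-fold in SSZ1OEΔire1Δscj1 (log2 difference 0.31, SE 0.063, adjusted p = 0.00873), and its difference in SSZ1OEΔire1 was 0.20 (adjusted p = 0.105). The call against Δire1 held in 17 of 20 alternatives, compared with 13 for PMT4, 8 for SEC61, 8 for SRP54 and 7 for SSH1, and was lost with quantile normalization and with the slide row as a block or within rows. Such alternatives, here and below, refit the same arrays and are not independent tests. For this comparison, leaving out either SSZ1OEΔire1 array gives the same fit as only the 2 groups compared. The row as a block likewise repeats the estimates within rows. For SSZ1OEΔire1 against Δire1, both of these give the same fit as leaving out Δire1 replicate 3.

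ALG6 adds the first glucose in the lumen. It stood at −0.63, −0.76 and −0.57 in Δire1 replicates 1, 2 and 3, at −0.95 and −0.90 in SSZ1OEΔire1 and at −0.47, −0.62 and −0.54 in SSZ1OEΔire1Δscj1. Both SSZ1OEΔire1 arrays lay below all others, and ALG6 was higher in SSZ1OEΔire1Δscj1 than in SSZ1OEΔire1 by 1.3-fold (log2 difference 0.38, SE 0.086, adjusted p = 0.0329). Against Δire1 the differences were −0.27 (adjusted p = 0.0826) in SSZ1OEΔire1 and 0.11 (adjusted p = 0.289) in SSZ1OEΔire1Δscj1. The call was lost with any array other than Δire1 replicate 2 left out (adjusted p = 0.0542 to 0.218).

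ALG7, the enzyme of the committed first step, stood at −0.60, −1.12 and −0.64 in Δire1 replicates 1, 2 and 3, at −0.51 and −0.53 in SSZ1OEΔire1 and at −0.70, −0.95 and −0.72 in SSZ1OEΔire1Δscj1. Its SSZ1OEΔire1 arrays were above those of both other strains, but the difference from Δire1 of 0.27 did not pass (adjusted p = 0.326) and was 0.10 without Δire1 replicate 2. ALG12, a lumenal mannosyltransferase, had the largest negative difference of the group, −0.39 between the overexpressing strains (adjusted p = 0.0624). The remaining genes of the group, ALG2, ALG3, ALG5, ALG8 and ALG9, passed in no comparison over all 8 arrays. Without Δire1 replicate 2, ALG3 (−0.36, adjusted p = 0.0161), ALG9 (−0.22, adjusted p = 0.0196) and ALG12 (−0.29, adjusted p = 0.0209) fell and ALG5 rose (0.33, adjusted p = 0.0331) in SSZ1OEΔire1Δscj1 against Δire1, ALG9 fell in SSZ1OEΔire1 (−0.27, adjusted p = 0.0271), and ALG12 fell between the overexpressing strains (−0.39, adjusted p = 0.0187). ALG3, the only gene of the 38 with more than 1 probe, gave −0.057 and −0.083 with its 2 probes in SSZ1OEΔire1 and −0.23 and −0.28 in SSZ1OEΔire1Δscj1 against Δire1.

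The glucosidase genes CWH41, for the enzyme that removes the outermost glucose, and ROT2, for the catalytic subunit of the enzyme that removes the others, passed in no comparison. CWH41, shown for its values, stood at −0.34, −0.90 and −0.33 in Δire1 replicates 1, 2 and 3, at −0.56 and −0.54 in SSZ1OEΔire1 and at −0.39, −0.55 and −0.40 in SSZ1OEΔire1Δscj1. Δire1 replicate 2 was the lowest of the 8 arrays and replicates 1 and 3 the highest. ROT2 differed from Δire1 by 0.21 in SSZ1OEΔire1 and 0.11 in SSZ1OEΔire1Δscj1, with a 95% interval for the latter of −0.17 to 0.38.

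Relative to the 75th percentile, the 4 PMT genes among the 38 had the lowest median of any role group in SSZ1OEΔire1Δscj1. It was −0.35 against Δire1 and −0.31 against SSZ1OEΔire1, with 4 of 4 negative in both. The other 3 PMT genes, outside the 38, had medians of 0.17 and 0.086, with 2 of 3 positive in both. Over all tested genes these medians were 0.019 and −0.0046. The PMT median against Δire1 was −0.53 without Δire1 replicate 2 or with the row as a block, and that against SSZ1OEΔire1 was −0.19 without SSZ1OEΔire1Δscj1 replicate 2 and −0.56 with the row as a block. Spike-in scaling, which raises all genes in SSZ1OEΔire1Δscj1, gave 0.068 and −0.00019. PMT4, which acts as a homodimer on membrane-attached substrates, stood at 1.76, 1.37 and 1.79 in Δire1 replicates 1, 2 and 3, at 1.49 and 1.33 in SSZ1OEΔire1 and at 1.19, 1.07 and 1.30 in SSZ1OEΔire1Δscj1. It fell 1.37-fold in SSZ1OEΔire1Δscj1 against Δire1 (log2 difference −0.46, SE 0.13, adjusted p = 0.0268), the largest called difference among the 38 genes, with no overlap, although Δire1 replicate 2 was only slightly above the highest SSZ1OEΔire1Δscj1 array.

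PMT1 and PMT2 encode the partners of the main heterodimer. PMT1 stood at 1.26, 0.68 and 1.25 in Δire1 replicates 1, 2 and 3, at 1.34 and 1.18 in SSZ1OEΔire1 and at 0.79, 0.70 and 0.88 in SSZ1OEΔire1Δscj1. PMT2 stood at 1.80, 1.32 and 1.84 in Δire1 replicates 1, 2 and 3, at 1.54 and 1.71 in SSZ1OEΔire1 and at 1.37, 0.87 and 1.46 in SSZ1OEΔire1Δscj1. Δire1 replicate 2 lay below all SSZ1OEΔire1Δscj1 arrays for PMT1 and among them for PMT2, and against Δire1 they differed there by −0.28 (adjusted p = 0.206) and −0.42 (adjusted p = 0.118). Without that array both fell (−0.47, adjusted p = 0.0049 and −0.59, adjusted p = 0.0336), and PMT1 also fell against SSZ1OEΔire1 (−0.47, adjusted p = 0.0158). PMT5, a relative of PMT1, differed by −0.082 from Δire1 and by −0.0016 from SSZ1OEΔire1. The log2 ratio of PMT1 to PMT2 was 0.22 higher in SSZ1OEΔire1 than in Δire1 (exact permutation p = 0.1, the smallest these arrays allow; adjusted p = 0.4).

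**Figure D5:**
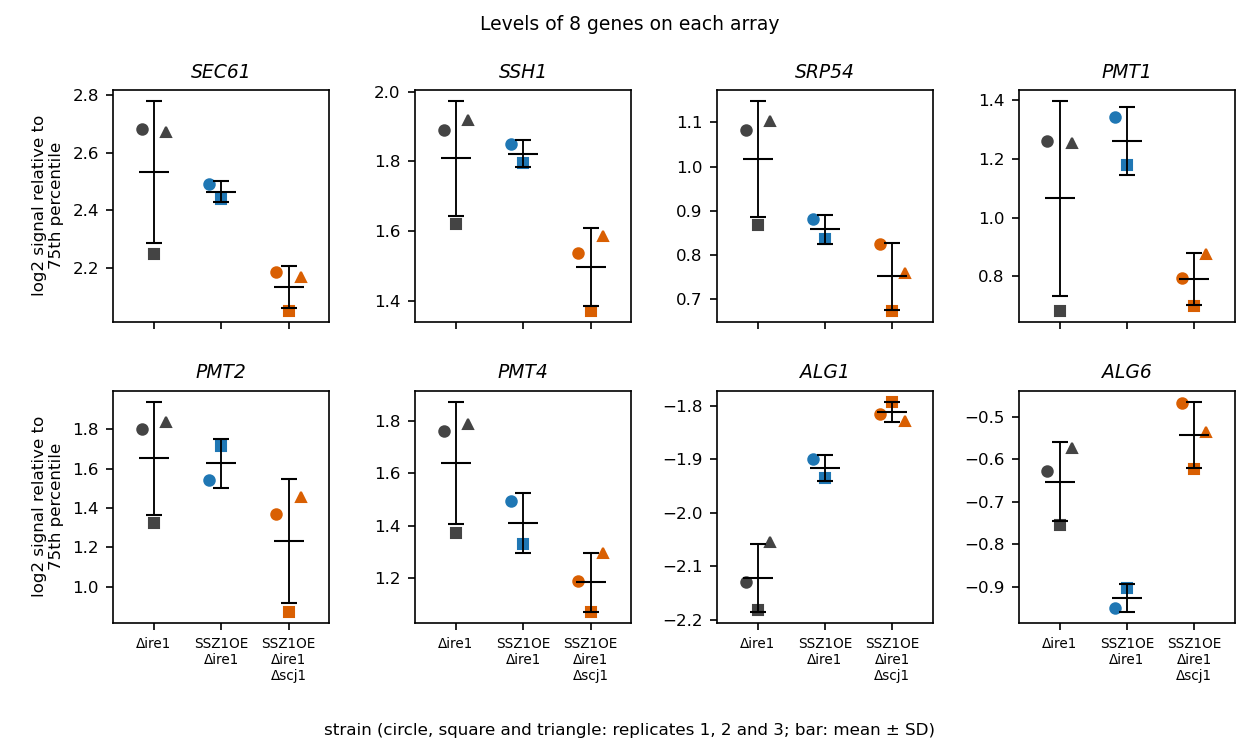
Scaled log2 level of 8 genes on every array (75th percentile of the array at 0), by strain, with the mean and SD as bars and replicates 1, 2 and 3 as circles, squares and triangles; the vertical axes differ between panels and do not start at 0. SEC61, SSH1, SRP54 and PMT4 are lower on the SSZ1OEΔire1Δscj1 arrays than on any Δire1 array, and Δire1 replicate 2 (square) is the lowest of its strain in all 8 panels.

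Within slide row 2, which held Δire1 replicate 3 and the 3 SSZ1OEΔire1Δscj1 arrays, the called genes kept their sign: SEC61 differed by −0.53 (adjusted p = 0.072), PMT4 by −0.60 (adjusted p = 0.0579), SSH1 by −0.42 (adjusted p = 0.0878), SRP54 by −0.35 (adjusted p = 0.0958) and ALG1 by 0.24 (adjusted p = 0.121). None of the 38 passed there (0 of 38, beside 1065 of the 6244 tested genes), with the lone Δire1 array assumed to vary like the other groups. Within row 1, SSZ1OEΔire1 against Δire1 replicates 1 and 2 also gave 0 of 38, beside 252 of 6244. Mating-type markers differed between the strains. In SSZ1OEΔire1Δscj1, 6 of 7 a-cell genes fell against Δire1. Their summed signal relative to the 75th percentile was 7.49 to 7.83 in Δire1, 6.23 to 8.2 in SSZ1OEΔire1 and 3.93 to 5.22 in SSZ1OEΔire1Δscj1. All 7 were well above background on all 8 arrays. Of 4 alpha-cell genes 2 rose and 1 had a negative difference (−0.42), with sums of 0.139 to 0.163, 0.164 to 0.211 and 0.286 to 0.318 in the same order. Only 3 of these 4 were well above background on Δire1 replicate 3 and on SSZ1OEΔire1Δscj1 replicates 1 and 3. Between the overexpressing strains 4 of 7 a-cell genes fell and 2 of 4 alpha-cell genes rose, and in SSZ1OEΔire1 against Δire1 the counts were 0 and 1. The 4 alpha-cell differences in SSZ1OEΔire1 against Δire1 ran from −0.40 to 2.12, with 2 positive and 2 negative. Whether these markers had a part in the differences of the 38 genes was not tested.

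Related genes outside the 38 were counted from 7 lists. Over all tested genes 7.48% rose and 3.88% fell in SSZ1OEΔire1 against Δire1, and 21.3% and 16.9% in SSZ1OEΔire1Δscj1 against Δire1. Between the overexpressing strains 6.28% rose and 5.57% fell. The counts per list were not tested against these shares. Of 20 other genes of N-glycosylation and sugar donor supply, 3 rose and 1 fell in SSZ1OEΔire1: ALG13, for a subunit of the enzyme adding the next N-acetylglucosamine, by 0.77, CAX4, for a dolichyl pyrophosphate phosphatase, by 0.54 and PCM1, of UDP-N-acetylglucosamine synthesis, by 0.43, whereas ALG11, a mannosyltransferase gene, was at −0.32. In SSZ1OEΔire1Δscj1 against Δire1, 4 rose and 3 fell, beside 21.3% and 16.9% of all tested genes. CAX4 (0.65, adjusted p = 0.00727), GFA1, for the first enzyme of UDP-N-acetylglucosamine synthesis (0.60, adjusted p = 0.00566), ALG13 (0.53) and PCM1 (0.49) were higher. The 3 that fell, named for being few, were DPM1, for dolichol phosphate mannose synthase, at −0.45, PSA1, for GDP-mannose synthesis, at −0.40 and RER2, for dolichol synthesis, at −0.33. PSA1 turned to 0.0068 with quantile normalization, and PSA1 and RER2 turned to 0.018 and 0.089 with spike-in scaling. RER2 was the only gene of this list to pass between the overexpressing strains (−0.49, adjusted p = 0.0133). In SSZ1OEΔire1 the calls held in 14 of 20 alternatives for ALG13, 8 for CAX4, 8 for PCM1 and 9 for ALG11, and in SSZ1OEΔire1Δscj1 against Δire1 in 20 for CAX4, 18 for GFA1 and PCM1, 16 for ALG13, 17 for RER2, 15 for PSA1 and 11 for DPM1.

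Of 16 other translocation and targeting genes, 0 were called in SSZ1OEΔire1 by limma. At an unadjusted p under 0.05, 2 were higher and 2 lower, beside 1786 of the 6244 tested genes in either direction. SEC65, for a signal recognition particle subunit, fell in SSZ1OEΔire1Δscj1 against Δire1 (−0.21, adjusted p = 0.033, and 0.20 with spike-in scaling). SGT2, of the tail-anchored protein route, fell in SSZ1OEΔire1Δscj1 against SSZ1OEΔire1 (−0.42, adjusted p = 0.0413). MNS1, the ER mannosidase gene, rose against Δire1 by 0.53 and 0.39 in the overexpressing strains, and GTB1, for the partner of Rot2, by 0.41 in SSZ1OEΔire1Δscj1, both out of a list of 5. Of 3 other PMT genes only PMT7 rose, by 0.28 in SSZ1OEΔire1Δscj1. The SEC65 call held in 8 of 20 alternatives, that of SGT2 in 8 of 19, those of MNS1 in 14 and 15 of 20, that of GTB1 in 8 and that of PMT7 in 13.

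Of 21 genes of glycosylphosphatidylinositol anchor synthesis, 3 fell in SSZ1OEΔire1 (GPI2 at −0.49, GPI10 at −0.32 and PGA1 at −0.28), beside 3.88% of all tested genes. In SSZ1OEΔire1Δscj1 against Δire1, 4 rose and 1 fell, beside 21.3% and 16.9% of all tested genes. The largest were GPI18 at 0.58 (adjusted p = 0.00294), GPI12 at 0.50 (adjusted p = 0.0052) and GPI17 at 0.43 (adjusted p = 0.00336). The calls in SSZ1OEΔire1 were weak: GPI2 passed in 7 of 20 alternatives, GPI10 in 9 and PGA1 in 5. Each was lost with either SSZ1OEΔire1 array left out, with Δire1 replicate 1 left out and with the slide row as a block. The latter fit is the same as leaving out Δire1 replicate 3. GPI18 and GPI17 passed in 20 of 20 and GPI12 in 18. GPI18 and GPI10 encode mannosyltransferases, GPI12 a deacetylase and GPI17 a subunit of the transamidase. Of 20 genes of Golgi mannosylation, 1 rose and 1 fell in SSZ1OEΔire1, ANP1 at 0.31 and MNN1 at −0.64. OCH1, which starts the outer mannose chain, rose in SSZ1OEΔire1Δscj1 against both Δire1 (0.66, adjusted p = 0.00415) and SSZ1OEΔire1 (0.70, adjusted p = 0.0176), with KTR6 at 0.41 and MNN9 at −0.29 against Δire1 (0.12 with spike-in scaling). The OCH1 calls held in 20 of 20 and 16 of 19 alternatives and that of KTR6 in 18 of 20, compared with 7 for MNN9, 8 for ANP1 and 9 for MNN1. Of 10 ER chaperone genes known as UPR targets, KAR2, for the lumenal Hsp70, and SIL1, its exchange factor, rose in SSZ1OEΔire1 (0.59, adjusted p = 0.00678 and 0.28, adjusted p = 0.0441), and KAR2 fell in SSZ1OEΔire1Δscj1 against SSZ1OEΔire1 (−0.74, adjusted p = 0.00867), as did SCJ1, the deleted gene. Against Δire1, LHS1 and SIL1 rose in SSZ1OEΔire1Δscj1 by 0.33 and 0.22. The KAR2 calls held in 18 of 20 and 16 of 19 alternatives. Those of SIL1 held in 6 and 7 of 20 and were lost with quantile or median scaling and with any array but Δire1 replicate 2 left out, and that of LHS1 held in 9 of 20. Without Δire1 replicate 2 the calls in SSZ1OEΔire1Δscj1 against Δire1 became 4 up and 6 down of the 20 N-glycosylation and sugar donor genes, 1 and 4 of the 16 translocation and targeting genes, 5 and 4 of the 21 anchor genes, 2 and 6 of the 20 Golgi genes and 3 and 1 of the 10 chaperone genes, beside 27.2% and 23.5% of all tested genes.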

How the data were processed

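Total RNA of 8 samples was labelled with Cy3 and hybridised to 8 arrays. Agilent Feature Extraction 10.7.1.1 is the tool that the submitters' processing notes name for the scans. The deposited intensity of a spot already has its background removed, per the file headers, and is on each array's own scale. The deposited log2 value table of the same arrays equalled the log2 intensity after subtraction of, first, the 75th percentile per array and, then, each probe's median (r = 1.00, column medians −0.034 to 0.011); its scale and centring are not stated and were found by this match. One file, SSZ1OEΔire1Δscj1 replicate 3, holds values kept to 3 significant digits.

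Here, log2 processed intensity was averaged over a probe's spots without outlier spots, and scaled by subtracting the 75th percentile of all non-control probes. A probe counted as well above background if its flagged share of spots exceeded 0.5, and a gene was tested where this held on all arrays of 1 group or more. Where a name had several probes, the brightest was used. Symbols came from a RefSeq table of assembly R64 (5903 of 6576 names matched). GPI15 was not analysed here, and no coordinates or sequences are given. The test was limma's, version 3.58.1 with R 4.3.3 (3 group means, eBayes, Benjamini-Hochberg at 0.05), after a run on simulated data. Ratios of gene pairs were compared with exact permutation tests. The number of arrays limits the precision.

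The members, lists, tests and alternatives were chosen with earlier results of these data known. Values were given array by array for members with the 10 largest called differences, for 4 gene pairs (SEC61 and SSH1, SBH1 and SBH2, OST3 and OST6, PMT1 and PMT2) and for SEC61, SEC11, SRP54, STT3 and ALG7; at most 3 called genes were named per list and comparison, except for genes said to be shown for their values or for being few, and ALG11, PCM1 and MNN9, also chosen after their values were seen. The alternatives were another background correction, quantile, median and spike-in scaling, the deposited table, 2 filters on dim probes, the mean over probes, slide row and replicate number as blocks, each array left out, and fits of only the 2 groups compared. The comparison within slide rows was added after seeing the data.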

Additional observations from a re-analysis of the deposited data

How the results depend on the processing

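In SSZ1OEΔire1 against Δire1, the row as a block, the comparison within slide row and leaving out Δire1 replicate 3 were the same fit. The count of 0 of 38 there held under 19 of 20 alternatives and ran from 0 to 8 with 1 array left out. For SSZ1OEΔire1Δscj1 against Δire1 (5 as reported) it was 2 with quantile normalization, 10 with median scaling, 0 with the slide row as a block or within slide row (the same estimates, as each row holds 1 of the 2 contrasts with Δire1), 2 with only the 2 groups compared, and 1 to 21 with 1 array left out. Between the overexpressing strains (1 as reported) it was 2 with normexp background correction, 0 with median scaling, spike-in scaling or the row as a block, 5 with only the 2 groups compared, and 0 to 6 with 1 array left out.

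The median of the 38 differences in SSZ1OEΔire1Δscj1 against Δire1 was −0.125 with median scaling, −0.1256 with the row as a block or within slide row, and −0.124 to 0.036 with 1 array left out. Spike-in scaling gave medians of 0.1124, 0.3937 and 0.2582 in the 3 comparisons, and the row as a block gave −0.1458 between the overexpressing strains. The differences of SEC61, SSH1, SRP54, SEC65, RER2, PSA1, GPI10 and MNN9 in SSZ1OEΔire1Δscj1 against Δire1 turned to 0.01915, 0.1035, 0.1506, 0.2022, 0.08895, 0.01768, 0.1885 and 0.1239 with spike-in scaling, which adds the same shift to every gene. PSA1 turned to 0.00675 with quantile normalization, and GPI19 to −0.002325 with normexp and −0.03693 with quantile normalization. Causes were not tested.

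With replicate number as a replicate block, 0, 5 and 0 of 38 genes were called in the 3 comparisons. Same-numbered arrays of different strains did not all deviate together (r from −0.038 to 0.21 over 7 pairs of arrays), so the numbers are not treated as pairs. Normexp used the median spot signal, since the files used here hold no mean signal. Over all tested genes the calls ranged from 60 to 1504, 1065 to 3166 and 2 to 1526 in the 3 comparisons. In SSZ1OEΔire1 against Δire1 they split into 467 up and 242 down as reported, 339 and 377 with quantile normalization, 371 and 346 with median scaling, and 182 and 21 with spike-in scaling. Between the overexpressing strains the calls that fell numbered 348 of 740 as reported, 652 with normexp (424 rose), and 11 with spike-in scaling (150 rose).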
